A study of Mus musculus with 4 samples.

Results

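The 10 genes described here encode the 4 ErbB receptors (Egfr, Erbb2, Erbb3 and Erbb4) and 6 of their ligands of the EGF type (Areg, Ereg, Hbegf, Tgfa, Btc and Nrg1). They were selected by gene symbol, and all 10 were among the 24548 genes counted. Each had 655 to 962 reads over the 4 libraries, so that all 10 were among the 23128 genes with enough reads to be compared. Reads come from chromatin immunoprecipitation sequencing (ChIP-seq) for Foxp1, a forkhead transcription factor. The cells were basal and luminal epithelial cells from mammary glands of wild-type FVB/N females (strain entered as FBV/N in the sample labels) aged 10 to 12 weeks. The 4 groups are basal Foxp1 ChIP, basal input, luminal Foxp1 ChIP and luminal input. Each is 1 library, and input is DNA sequenced with no antibody. How many mice were behind each library is not known from the labels, and no control antibody was analysed.

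ErbB receptors are tyrosine kinases that pair on the cell surface when a ligand binds. EGFR binds amphiregulin (Areg), epiregulin (Ereg), HB-EGF (Hbegf), TGF-alpha (Tgfa) and betacellulin (Btc), and neuregulin 1 (Nrg1) binds ErbB3 and ErbB4. ErbB2 has no known ligand and acts as a partner of the others, and ErbB3 has little kinase activity of its own. In the mouse mammary gland amphiregulin is the estrogen-induced ligand of ductal growth, ErbB4 serves lactation, and neuregulin 1 made by basal cells acts on luminal progenitors.

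No member was called higher or lower in Foxp1 ChIP over input in either cell type. A call needed a ratio of scaled reads of 1.5-fold or more and a 99% counting interval that excluded 1. In basal cells Egfr, Hbegf, Tgfa and Nrg1 stood just under that fold, at 1.42-fold to 1.48-fold, with intervals wholly above 1, and Erbb2 stood below input at 0.681-fold. Centring the ratios on olfactory receptor genes, which are used mainly in the nose, put the 4 past the fold, and they were then called higher; under this setting 12.9% of all genes were called higher, against 4.24% without it. In luminal cells the highest member was Erbb3, at 1.29-fold. Between cell types, the ChIP over input ratios of Nrg1, Hbegf and Ereg were called higher in basal cells, against 3.72% of all genes. They were higher by 1.62-fold, 1.60-fold and 1.55-fold. All 3 calls were lost when the interval was widened by the spread among olfactory receptor genes. With the inputs summed as background, Hbegf was not called (log2 0.29). With 1 library per group the intervals cover counting error only, and the spread between animals is unknown.

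The promoters below show the base composition of the members and the letters in which forkhead words were searched. They are the RefSeq sequences on GRCm38.p6, from 250 bases before to 50 after an annotated start, read 5′ to 3′ on the gene's strand, with CG pairs in capitals. Of the 6 member promoters in the table, 5 are shown: Egfr and Tgfa, above input in basal cells; Erbb2, below it; and Areg and Btc, near it. The regions are chr11:16751953-16752252 (plus strand) for Egfr, chr6:86194972-86195271 (plus) for Tgfa, chr11:98412234-98412533 (plus) for Erbb2, chr5:91139349-91139648 (plus) for Areg and chr5:91402945-91403244 (minus) for Btc.
Egfr: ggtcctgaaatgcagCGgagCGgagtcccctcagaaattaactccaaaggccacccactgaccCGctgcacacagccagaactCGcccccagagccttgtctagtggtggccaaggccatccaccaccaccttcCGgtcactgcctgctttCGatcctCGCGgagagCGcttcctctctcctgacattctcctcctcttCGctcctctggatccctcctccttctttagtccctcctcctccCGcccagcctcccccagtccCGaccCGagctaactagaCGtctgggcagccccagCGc
Tgfa: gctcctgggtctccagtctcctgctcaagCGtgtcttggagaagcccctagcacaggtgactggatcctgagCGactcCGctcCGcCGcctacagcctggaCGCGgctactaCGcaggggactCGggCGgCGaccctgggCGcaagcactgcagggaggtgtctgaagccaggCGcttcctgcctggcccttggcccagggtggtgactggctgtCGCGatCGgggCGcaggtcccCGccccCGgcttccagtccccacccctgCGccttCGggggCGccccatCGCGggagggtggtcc
Erbb2: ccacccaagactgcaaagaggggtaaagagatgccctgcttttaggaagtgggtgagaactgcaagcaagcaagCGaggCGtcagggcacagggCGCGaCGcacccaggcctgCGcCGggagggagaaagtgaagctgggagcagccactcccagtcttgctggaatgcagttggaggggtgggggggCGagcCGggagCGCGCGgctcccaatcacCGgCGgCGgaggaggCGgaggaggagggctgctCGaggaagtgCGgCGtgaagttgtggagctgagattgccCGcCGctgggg
Areg: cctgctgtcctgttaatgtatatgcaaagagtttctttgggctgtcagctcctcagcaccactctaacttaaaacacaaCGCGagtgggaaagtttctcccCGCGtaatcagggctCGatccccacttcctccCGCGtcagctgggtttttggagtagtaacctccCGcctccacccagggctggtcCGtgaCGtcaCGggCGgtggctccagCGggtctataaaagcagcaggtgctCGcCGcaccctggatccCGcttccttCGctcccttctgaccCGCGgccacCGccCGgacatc
Btc: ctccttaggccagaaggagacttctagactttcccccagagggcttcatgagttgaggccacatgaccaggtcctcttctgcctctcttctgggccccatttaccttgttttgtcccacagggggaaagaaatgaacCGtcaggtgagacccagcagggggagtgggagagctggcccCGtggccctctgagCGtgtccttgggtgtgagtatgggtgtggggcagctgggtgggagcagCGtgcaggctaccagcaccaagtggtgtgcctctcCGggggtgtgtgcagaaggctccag

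The Tgfa window was 70.7% G and C with 24 CG pairs, Erbb2 66.0% with 21, Egfr 62.3% with 15, Btc 60.3% with 5, Areg 59.3% with 21 and Erbb4 55.3% with 17. The median over 17432 compared genes with a promoter was 56.3% and 13 CG pairs. Words of forkhead type were searched on both strands in the 6 windows and in all 32851 promoters of this length. They were TGTTTAC, held by 3.65% of all promoters, TGTTTGC, held by 5.07%, TATTTAC, held by 3.04%, TATTTAT, held by 5.60%, and TATTTGT, held by 3.63%. None of the 5 was in any of the 6 member windows, and 18.4% of all promoters held at least 1 of them. With only 6 windows, a difference from that share was not tested. The AP-1 word TGANTCA was in no member window either and in 7.81% of promoters. Areg held the cyclic AMP response word TGACGTCA, beginning 61 bases before the start, and the TATA word TATAAA, beginning 31 bases before it. TGACGTCA was in 1.79% of all promoters and TATAAA in 13.6%, and this pair of words was searched after the sequences were seen. The windows cover 300 bases, and the labels do not say which part of each gene was counted, so these matches are a description of the letters only.

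Counted reads per library ranged from 3080114 (basal input) to 4201459 (luminal input). The cell labels were set against marker genes in the inputs. Of 10 basal markers 9 had more scaled reads in basal than in luminal input (median log2 ratio 0.28), led by the basal keratin gene Krt14, which was called. Of 10 luminal markers 8 had fewer (median -0.36), and the receptor gene Kit of luminal progenitors was called. In basal ChIP over input 2 of 10 basal markers were called higher, against 4.24% of all genes, and 0 of 10 luminal markers. None of the 24 fibroblast, endothelial, leukocyte and adipocyte markers was called higher. Dcn (log2 -0.63), Tek (-0.77) and Itgam (-0.65) of these were called lower, against 4.06% of all genes. In luminal ChIP 2 of 10 luminal markers were called higher, against 1.5%, and none of the other marker lists. The adipocyte marker Plin1 (-0.60) was called lower there, against 2.13%. For the difference between cell types 5 of 10 basal markers were called higher in basal cells, against 3.72% of all genes. Their median log2 value was 0.56. No gene of the other marker lists was called higher. Of the luminal markers Prlr (-0.62) was called lower, and of the fibroblast markers Dcn (-0.60), against 4.16%. Per basal marker the mean scaled count was 267 in the basal ChIP library against 195 in its input, and 146 in the luminal ChIP library against 161 in its input, and no marker of any list was at 0. DNA from other cell types has the same genes, so these counts do not measure how pure a sort was; its part in the results was not tested.

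Among the receptors, Egfr (Entrez gene 13649, chromosome 11, 16752203 to 16913907, GRCm38) was the only member of the 4 with more scaled reads in basal ChIP than in basal input, although Erbb3 and Erbb4 joined it with olfactory receptors as the centre. Egfr was covered by 280 basal ChIP reads against 165 basal input reads, and by 194 luminal ChIP reads against 243 luminal input reads. After TMM scaling, these were 1.44-fold over input in basal cells (99% interval 1.12 to 1.87) and 1.09-fold in luminal cells (0.843 to 1.40). The basal value lay at the 92.5 percentile of all compared genes and the luminal value at the 66.8 percentile. The difference between cell types was 1.32-fold with an interval of 0.929 to 1.89, so a difference between them was not detectable at this depth.

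Erbb2 (gene 13866, chromosome 11, 98412484 to 98437716), the receptor amplified in a class of human breast cancers, lay below input in both cell types. It was covered by 146 basal ChIP reads against 182 basal input reads, and by 162 luminal ChIP reads against 274 luminal input reads. The basal ratio of 0.681-fold (0.507 to 0.911), at the 7.93 percentile of all genes, had an interval below 1, and 1.5-fold lower was not reached. With total-count scaling or with the inputs summed as background, Erbb2 was called lower in basal cells, at log2 ratios of -0.61 and -0.64. The luminal ratio was 0.805-fold (0.619 to 1.04), and the difference between cell types, 0.846-fold (0.577 to 1.24), was not detectable.

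Erbb3 (gene 13867, chromosome 10, 128567523 to 128589635) was the only member whose luminal interval excluded 1. It was covered by 174 basal ChIP reads against 165 basal input reads, and by 231 luminal ChIP reads against 243 luminal input reads. In luminal cells this was 1.29-fold (1.02 to 1.65), at the 90.7 percentile. In basal cells it was 0.895-fold (0.673 to 1.19), a ratio that turned to a log2 value of 0.054 with olfactory receptors as the centre. The basal over luminal ratio was 0.692-fold (0.480 to 0.998), the lowest of the 10 members, with an interval that ended just under 1 and a fold short of the call. With the inputs summed as background, where only the ChIP libraries differ, it was called lower in basal cells at a log2 value of -0.64.

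Erbb4 (gene 13869, chromosome 1, 68031884 to 69108576) was covered by 159 basal ChIP reads against 141 basal input reads, and by 133 luminal ChIP reads against 222 luminal input reads. Its ratios were 0.957-fold in basal cells (0.706 to 1.30) and 0.815-fold in luminal cells (0.609 to 1.08), and neither interval excluded 1. The basal sign turned, to a log2 value of 0.15, with olfactory receptors as the centre.

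**Figure D1:**
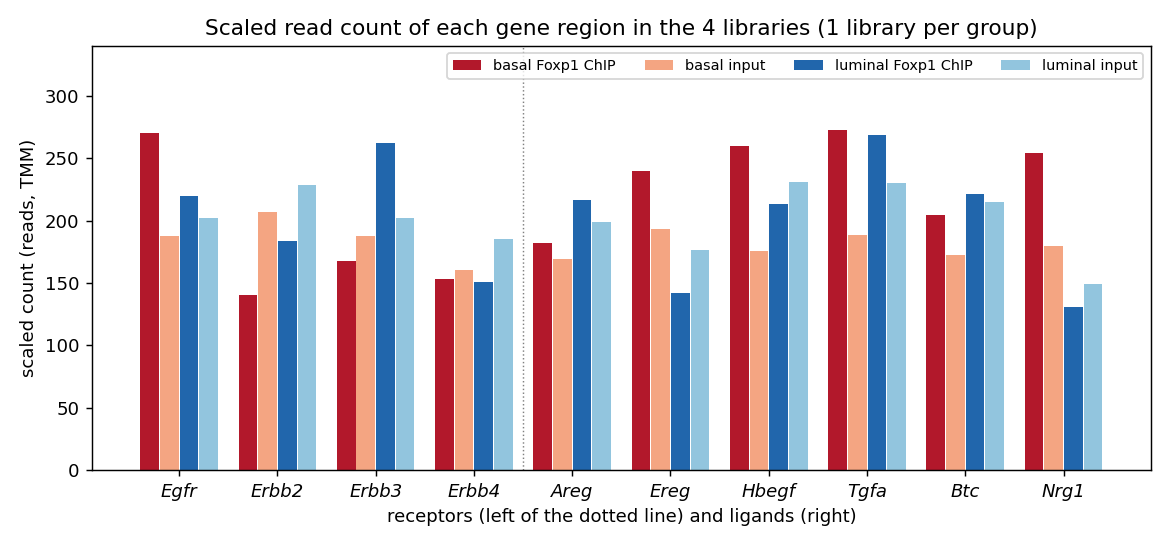
Scaled read counts (TMM, vertical axis) of the 4 receptor and 6 ligand genes in basal Foxp1 ChIP, basal input, luminal Foxp1 ChIP and luminal input, 1 bar per library. Nrg1 has its highest bar in basal ChIP and its lowest in luminal ChIP, and Erbb2 is lowest in basal ChIP.

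All 6 ligand genes had more scaled reads in basal ChIP than in basal input, with a median log2 ratio of 0.41, against a median of -0.01 over all compared genes. In luminal cells 3 of 6 lay above input, with a median of -0.04. Of all 23128 compared genes, 11205 lay above input in basal and 11476 in luminal cells. The receptors had medians of -0.11 in basal and -0.09 in luminal cells. With the inputs summed as background Areg fell just below input in basal cells, at a log2 value of -0.034.

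Nrg1 (gene 211323, chromosome 8, 31807452 to 32891609) varied most over the 4 libraries, by 0.96 on the log2 scale between the highest and the lowest scaled count. It was covered by 264 basal ChIP reads against 158 basal input reads, and by 115 luminal ChIP reads against 179 luminal input reads. The ratio was 1.42-fold in basal cells (1.09 to 1.85), at the 91.7 percentile, and 0.874-fold in luminal cells (0.636 to 1.19). The basal over luminal ratio of 1.62-fold (1.08 to 2.42) was called. Nrg1 also had more scaled reads in basal than in luminal input, 1.20-fold with an interval of 0.902 to 1.60 that includes 1. With the inputs summed, Nrg1 was called higher in basal ChIP and its difference between the ChIP libraries was a log2 value of 0.96. The annotated spans of the gene models Gm8179 and Gm3985 overlap that of Nrg1. The counted part of each gene is not given, so whether they share reads with Nrg1 is not known. Gm8179 lies wholly within the Nrg1 span and was not called, with log2 ratios of -0.05 in basal and -0.17 in luminal ChIP and a difference of 0.12. Gm3985 overlaps an end of the span. Gm3985 was covered by 178 basal ChIP reads against 129 basal input reads, and by 56 luminal ChIP reads against 146 luminal input reads, and it was called lower in luminal ChIP (log2 -0.94). Its basal over luminal ratio was called too (1.16). The genes nearest to Nrg1 in pattern, by Euclidean distance of centred log2 scaled counts over the 4 libraries among 17637 genes, were Mybph (0.069), Olfr1328 (0.074) and Ifi208 (0.10).

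Hbegf (gene 15200, chromosome 18, 36504927 to 36515805) had the highest basal ratio of the 10. It was covered by 270 basal ChIP reads against 155 basal input reads, and by 188 luminal ChIP reads against 277 luminal input reads. This was 1.48-fold in basal cells (1.14 to 1.93), at the 93.9 percentile, and 0.924-fold in luminal cells (0.719 to 1.18). The basal over luminal ratio of 1.60-fold (1.12 to 2.28) was called. Hbegf was also the only member whose inputs differed beyond counting error, at 0.762-fold in basal over luminal input (0.584 to 0.990). With the inputs summed, its difference between cell types was a log2 value of 0.29 and was no longer called, and its luminal ratio turned to 0.038.

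Ereg (gene 13874, chromosome 5, 91074617 to 91093649) was covered by 249 basal ChIP reads against 170 basal input reads, and by 125 luminal ChIP reads against 212 luminal input reads. Neither ratio over input passed, with 1.24-fold in basal cells (0.959 to 1.62) and 0.802-fold in luminal cells (0.594 to 1.08), the lowest luminal ratio of the 10. These point values lay on opposite sides of input with intervals that include 1, and the basal over luminal ratio of 1.55-fold (1.05 to 2.28) was called. With the inputs summed, only the ChIP libraries differ, so the ratio of basal to luminal input (log2 0.13 for Ereg) no longer enters. The basal over luminal ChIP ratio was then a log2 value of 0.76 and was called.

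Tgfa (gene 21802, chromosome 6, 86195038 to 86275744) was covered by 283 basal ChIP reads against 166 basal input reads, and by 237 luminal ChIP reads against 276 luminal input reads. It was the ligand gene above input in both cell types by the most, with 1.45-fold in basal (1.12 to 1.88) and 1.17-fold in luminal cells (0.926 to 1.47). The basal over luminal ratio of 1.24-fold (0.881 to 1.74) did not pass.

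Areg (gene 11839, chromosome 5, 91139599 to 91148432) was covered by 189 basal ChIP reads against 149 basal input reads, and by 191 luminal ChIP reads against 239 luminal input reads. Its ratios were close in value, 1.08-fold in basal cells (0.808 to 1.44) and 1.09-fold in luminal cells (0.842 to 1.40), with a basal over luminal ratio of 0.989-fold (0.679 to 1.44). That interval leaves room for a difference in either direction, and the sign of this difference turned, to a log2 value of 0.13, with olfactory receptors as the centre. Btc (gene 12223, chromosome 5, 91357261 to 91402994) was covered by 212 basal ChIP reads against 152 basal input reads, and by 195 luminal ChIP reads against 258 luminal input reads. It stood at 1.18-fold in basal (0.897 to 1.57) and 1.03-fold in luminal cells (0.801 to 1.32), and its difference of 1.15-fold (0.797 to 1.66) turned to a log2 value of -0.11 with the inputs summed.

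**Figure D2:**
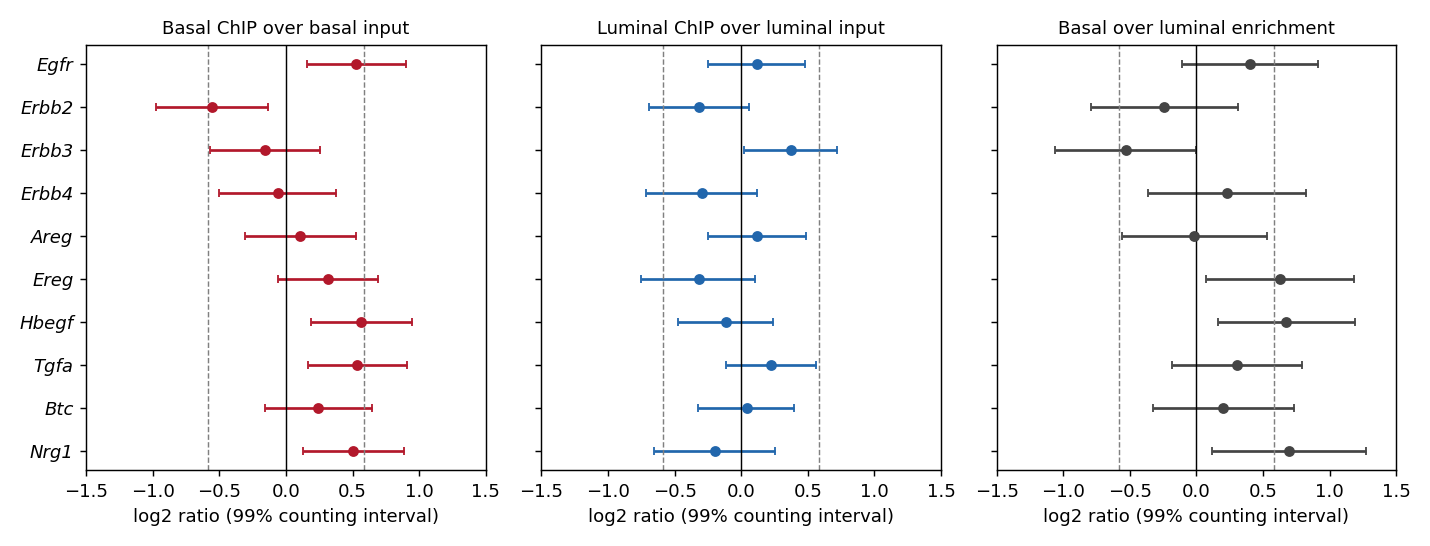
Log2 ratios of scaled reads (horizontal axes) for basal ChIP over basal input, luminal ChIP over luminal input and the ratio of these 2 ratios, with 99% counting intervals and dashed lines at 1.5-fold. In the basal panel Egfr, Hbegf, Tgfa and Nrg1 lie above 0 just inside the dashed line and Erbb2 below 0, and in the difference Ereg, Hbegf and Nrg1 pass the line.

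Ordered by ratio in basal ChIP, the members ran Hbegf, Tgfa, Egfr, Nrg1, Ereg, Btc, Areg, Erbb4, Erbb3 and Erbb2. In luminal ChIP they ran Erbb3, Tgfa, Areg, Egfr, Btc, Hbegf, Nrg1, Erbb4, Erbb2 and Ereg. Each neighbouring pair in these orders had overlapping intervals. In basal cells 5 members (Egfr, Ereg, Hbegf, Tgfa and Nrg1) had an interval wholly above that of Erbb2, while in luminal cells the intervals of the first and the last member, Erbb3 and Ereg, overlapped.

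These counts were read against all compared genes. In basal ChIP 0 of 10 members were called higher, against 4.24% of all genes, and 0 lower, against 4.06%. By the interval alone, at any fold, 4 of 10 were above input in basal cells, against 11.7% of all genes, and 1 below, against 7.52%. These intervals cover counting error only, and the variance among olfactory receptor genes was 2.28 times counting in basal ChIP. They were not widened here for that spread. In luminal ChIP 0 of 10 were called higher, against 1.5%, and 0 lower, against 2.13%. By the interval alone 1 was above, against 6.74%, and 0 below, against 4.35%. Between cell types 3 of 10 were called higher in basal cells, against 3.72%, and 0 lower, against 4.16%. By the interval alone 3 were higher, against 4.96%, and 1, Erbb3, lower, against 4.55%. The inputs gave 0 of 10 calls in each direction, against 0.709% of all genes higher in basal input and 0.463% lower, and by the interval alone 0 higher, against 3.0%, and 1, Hbegf, lower, against 2.53%. The median log2 ratio of the 10 was 0.28 in basal ChIP, -0.04 in luminal ChIP and 0.27 for the difference, against -0.01, -0.002 and 0.003 over all genes. In the inputs 8 of 10 members had fewer scaled reads in basal than in luminal cells, with a median of -0.18. Ereg joined them with olfactory receptors as the centre, at -0.085. Of all 23128 compared genes, 11536 had more scaled reads in basal input.

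The members' ratios were set beside promoter base composition, which moved with the ratios over all genes. Compared genes were divided by promoter G and C content into 5 groups of near equal size. From the lowest group to the highest, the median log2 ratio in basal ChIP was -0.17, -0.08, -0.01, 0.08 and 0.17, and in luminal ChIP -0.07, -0.04, -0.01, 0.05 and 0.09. Tgfa belonged to the highest group, Egfr, Erbb2 and Btc in the one below it, and Erbb4 and Areg in the middle one. The basal log2 ratios of Egfr (0.53) and Tgfa (0.53) were above the medians of their groups and that of Erbb2 (-0.55) was below. The part of base composition in these ratios was not tested. Counts did not follow gene length in these genes: Areg, of 8834 bp, had 768 reads over the 4 libraries, and Nrg1, of 1084158 bp, had 716.

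The ligand genes Ereg, Areg and Btc lie in a row on chromosome 5 with Epgn, the gene of the EGFR ligand epigen. Epgn (gene 71920, chromosome 5, 91027517 to 91035212) was covered by 200 basal ChIP reads against 158 basal input reads, and by 157 luminal ChIP reads against 271 luminal input reads. Its log2 ratios were 0.10 and -0.34, and their difference of 0.44 was not called. Ereg and Epgn, 39405 bp apart, thus had luminal ratios below 1 with intervals that include 1. Areg, 45950 bp on the other side of Ereg, and Btc had luminal ratios above 1, also with intervals that include 1. The luminal intervals of these genes overlapped. Neither Areg nor Btc was called for the difference between cell types. Of the 13 other counted genes within 500000 bp of the row, Cxcl1 and Cxcl2 were called higher in basal cells for the difference (log2 0.74 and 0.60). The share over all genes was 3.72%. These 2 genes encode neutrophil-attracting chemokines and were singled out after their values were seen. Of the same 13, Cxcl5 (0.47), Cxcl3 (0.25), Ppbp (0.20), Pf4 (0.11) and Cxcl15 (-0.29) were not called. Cxcl2 was also called in basal ChIP, with 315 reads against 156 in basal input. Mthfd2l, which lies between these chemokine genes and Epgn, had a difference of -0.45 and was not called.

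**Figure D3:**
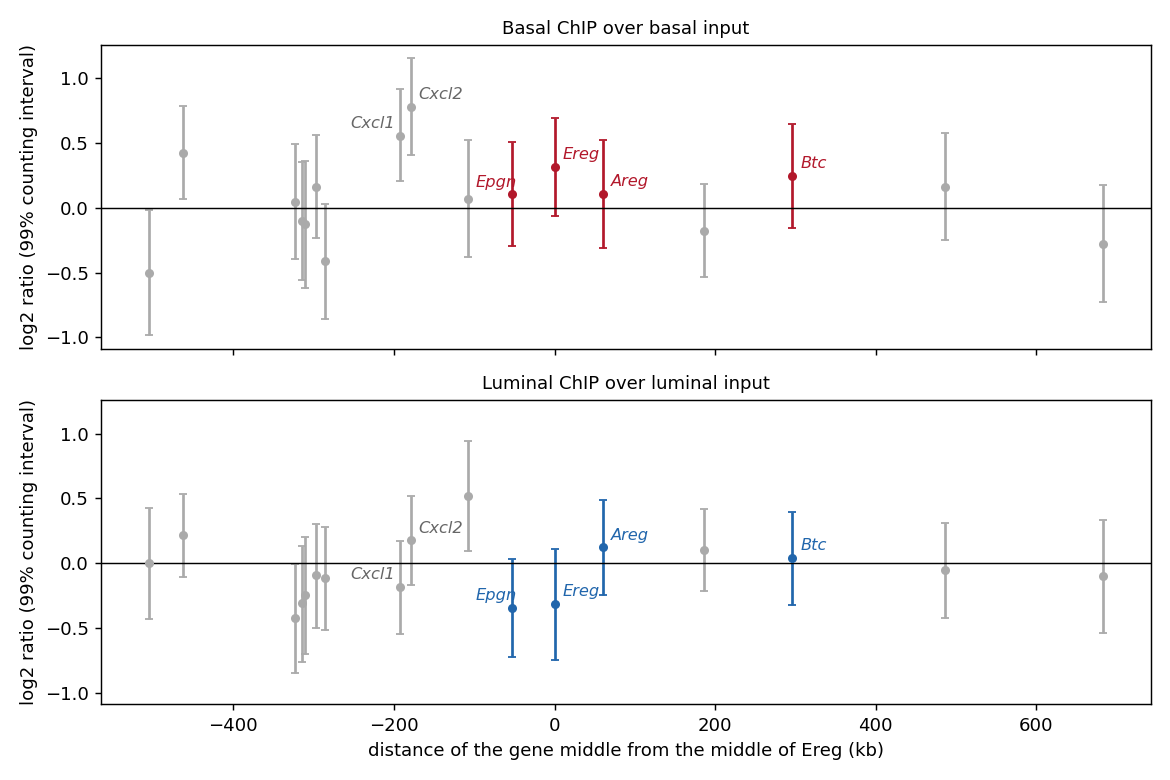
Log2 ratios of ChIP over input with 99% counting intervals (vertical axes) for 17 counted genes around the chromosome 5 ligand genes, placed by distance from the middle of Ereg in kb, basal above and luminal below. Epgn and Ereg lie below 0 in the luminal panel and above 0 in the basal panel, with intervals that cross 0.

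Neighbouring genes were also examined for the other members. Around Erbb2, 10 counted genes lie within 100000 bp. Grb7, the gene of an adaptor that binds ErbB2, was covered by 139 basal ChIP reads against 121 basal input reads, and by 218 luminal ChIP reads against 248 luminal input reads. It was called lower in basal than in luminal input (log2 -0.59), as was Pgap3 (-0.60), against 0.463% of all genes. Erbb2 itself differed by -0.14 between the inputs. In basal ChIP Stard3 (-1.24, on 15 ChIP reads against 30 input reads) and Neurod2 (-0.75) were called lower, against 4.06% of all genes. Neurod2 was also called lower for the difference between cell types (-0.84), against 4.16%. In luminal ChIP Pnmt was called lower (-0.77), against 2.13%. The other 5, among them Mien1, which overlaps the end of the Erbb2 span (-0.09 in basal and 0.35 in luminal ChIP), were not called in any comparison. Within 100000 bp of Erbb3 lie 14 counted genes. Of these, Rps26 (0.78) and Myl6 (0.68) were called higher in basal ChIP, where Erbb3 was not, against 4.24% of all genes. Myl6 was also called higher for the difference between cell types (0.62), against 3.72%. The microRNA gene Mir6917 (128584437 to 128584497) lies within the Erbb3 span, and Pa2g4 lies 1589 bp away. Mir6917 was given 158 basal ChIP reads against 161 basal input reads, and 171 luminal ChIP reads against 218 luminal input reads. The counted part of each gene is not given, so whether these genes share reads is not known. Erbb4 had no counted gene within 100000 bp. For Egfr, Hbegf and Tgfa, 3 counted genes each lay within 100000 bp, and none was called in basal or luminal ChIP.

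Other genes of the pathway were taken from a list of 49, of which 48 had enough reads; Map2k2 had 24 over the 4 libraries. In basal ChIP 2 of 48 were called higher, against 4.24% of all genes, and 3 lower, against 4.06%, and the list median was a log2 ratio of 0.17. Those higher were Cblb, an E3 ligase that acts on activated receptors (316 reads against 176 in basal input, 1.52-fold), and the kinase gene Braf (364 against 190, 1.63-fold). Those lower included Socs4, an inhibitor of EGFR signalling (14 reads in basal ChIP against 29 in basal input), and Pik3ca (138 against 176, 0.666-fold). The 3 lower calls were lost with the widened interval.

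In luminal ChIP 3 of 48 passed upwards, against 1.5% of all genes, and 0 downwards, against 2.13%, and the list median was 0.12. They included Rhbdf1, a rhomboid-like partner of the sheddase ADAM17 (184 reads against 155 in luminal input, 1.62-fold), and Plcg1, a phospholipase recruited by the receptors (287 against 248, 1.57-fold). Between cell types 2 of 48 were called higher, against 3.72% of all genes, and 3 lower, against 4.16%. Map2k1 (log2 0.87) and Braf (0.68) of the kinase cascade were called higher in basal cells, and those called lower included Pik3ca (-0.76) and Nrg4 (-0.66), a ligand of ErbB4. The 5 ligand genes outside the members had a basal median of -0.30, with Nrg2 highest (0.16) and Nrg4 lowest (-0.47), against 0.41 in the 6 member ligands; this difference between the lists was not tested.

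The 10 adaptor genes all lay above input in basal ChIP without a call, from 0.06 (Shc1) to 0.52 (Grb2). In luminal ChIP 9 of 10 lay above input, and the values of the 10 ran from -0.19 (Shc1) to 0.66 (Plcg1). Plcg1 was the only adaptor gene called higher there, against 1.5% of all genes. Shc1 had only 20 to 31 reads in each library. Of all 23128 compared genes, 11205 lay above input in basal and 11476 in luminal ChIP. The 4 genes of sheddases and their partners lay above input in both cell types, with basal values from 0.06 (Adam17) to 0.40 (Rhbdf1) and luminal values from 0.08 (Adam10) to 0.69 (Rhbdf1). Among receptor inhibitors the basal range ran from Socs4 (-1.29) to Cblb (0.61) and the luminal range from Errfi1 (-0.24) to Rnf41 (0.37), both of these on 40 or fewer input reads. In the PI3 kinase arm it ran from Pik3ca (-0.59) to Akt2 (0.48) in basal cells. Pik3r2 (-0.36) was lowest in luminal cells, on 12 ChIP reads against 21 input reads. In the kinase cascade Braf (0.70) was highest in basal and Map2k1 (-0.39) lowest in luminal cells.

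**Figure D4:**
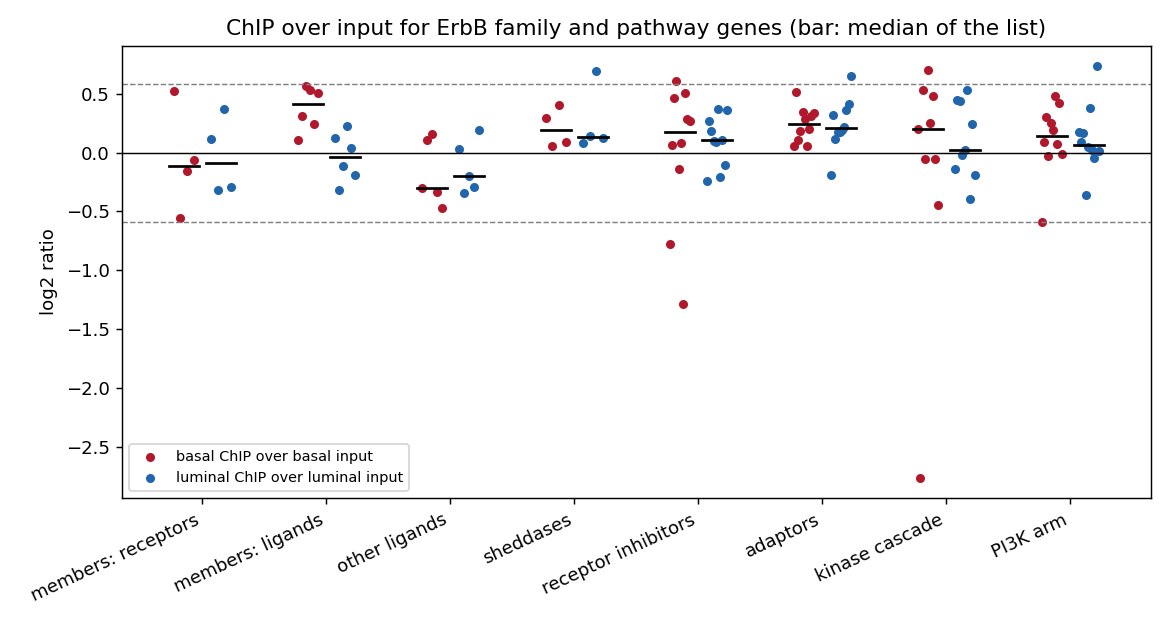
Log2 ratios of ChIP over input (vertical axis) for each gene of the ErbB receptors, the member ligands and 6 lists of pathway genes, basal in red and luminal in blue, with black bars at list medians and dashed lines at 1.5-fold. The member ligands have a basal median of 0.41 and a luminal median of -0.04.

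Among the receptors, Erbb2 had the widest range over the 4 libraries, 0.70 on the log2 scale. The genes nearest to it in pattern were Ptgir (distance 0.033), Agbl4 (0.038) and Ms4a6d (0.043), measured as for Nrg1. Over only 4 libraries such likeness is a description of these counts.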

How the data were processed

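The deposited table holds unnormalized counts of reads for each gene, made by the authors with featureCounts on build mm10, per the submitters' processing notes. Per the labels' protocols, DNA from a commercial ChIP kit was sequenced as single reads of 75 to 85 bp. For the aligner, the handling of duplicates and the counted part of each gene: not given in the sources used here.

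Groups were taken from sample titles, with 1 library each. Counts were scaled by TMM (edgeR 4.0.16, R 4.3.3) over the 23128 genes with at least 40 reads in all; the other 1420 were not compared. Each ratio carries an exact Clopper-Pearson interval (99%), and the ratio of ratios a normal interval from counts plus 0.5. Reads are not independent molecules where PCR copied them, so intervals cover counting error only. No p-value or count model was used. Python 3.11.15, numpy 2.4.6, pandas 2.3.3, scipy 1.17.1 and matplotlib 3.10.9 were used. Gene positions and promoters are RefSeq on GRCm38.p6, the assembly of mm10; 6 of 10 members had a promoter that is used here.

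The alternatives tried were scaling by DESeq2 1.42.0 size factors or by library totals, centring on olfactory receptor genes, no low-count filter, the inputs summed as background, a 95% interval, and an interval widened by the spread among 1108 olfactory receptor genes. With the inputs summed, the difference between cell types is the basal over luminal ChIP ratio and holds no input term. The members, gene lists and call rule were chosen with earlier results of these data known. Genes named are all members, pathway genes called or at the ends of each list, neighbours within 100000 bp that were called, overlap a member or lie close to it (the others are given as counts), and the 3 genes nearest in pattern to 1 receptor and 1 ligand. Some marker genes and some genes around the chromosome 5 ligand genes are named as well. A few pathway genes that this rule selects are counted in the lists and not reported by name here.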

Additional observations from a re-analysis of the deposited data

Results flagged for a closer look

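For 3 of the 10 genes the enrichment differed between cell types beyond counting error and by 1.5-fold or more, as a ratio of the basal to the luminal ChIP over input ratio, against 3.72% of all genes called higher by the same rule. All 3 calls were lost when the interval was widened by the spread among olfactory receptor genes. The log2 difference was 0.69 for Nrg1, 0.68 for Hbegf and 0.63 for Ereg, each higher in basal cells. Each rests on 4 libraries with no replicate, so the difference was compared with counting error and not with the spread between animals. Hbegf was also lower in basal than in luminal input (log2 -0.39), and with the inputs summed its difference was 0.29 and not called. Between the inputs Nrg1 had a log2 value of 0.27 and Ereg of 0.13, with intervals that include 0.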

How the results depend on the processing

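No paired analysis was possible because each group is 1 library, and no library could be left out. Of the members' ratios, all kept direction and call with DESeq2 size factors, with no low-count filter and with a 95% interval. Centring on olfactory receptors moved the median of all genes to 0.20 in basal ChIP, -0.21 between the inputs and 0.15 for the difference. In basal ChIP 4 members (Egfr, Hbegf, Tgfa, Nrg1) were then called higher, against 12.9% of all genes. Between the inputs 1 (Hbegf) was lower in basal input, against 3.89%. Pathway calls in basal ChIP were 10 of 48 higher, against 12.9%, and 1 lower, against 1.02%. For the difference 5 of 48 were higher, against 8.68%. Signs turned there for Erbb3 (0.054) and Erbb4 (0.15) in basal ChIP, Ereg between inputs (-0.085) and Areg for the difference (0.13). With the inputs summed, 1 member (Nrg1) was called higher in basal ChIP, against 3.13% of all genes, and 1 (Erbb2) lower, against 3.74%. For the difference 1 (Erbb3) was called lower, against 4.03%. Signs turned for Areg in basal ChIP (-0.034), Hbegf in luminal ChIP (0.038) and Btc for the difference (-0.11). With total counts 1 member (Erbb2) was called lower in basal ChIP, against 5.67% of all genes, and 1 pathway gene higher, against 3.02%. The interval was also widened by the spread of olfactory receptors, whose variance was 2.28 times counting in basal and 2.12 times in luminal cells. For the difference 0 members and 1 pathway gene were then higher, against 0.895% of all genes. Pathway genes called lower were 0 in basal ChIP, against 1.19%, and 0 for the difference, against 0.558%. The cause of these changes was not tested. Of all genes called, the share higher in basal ChIP was 51.1%, 34.7% with total counts and 92.7% with receptors as the centre. In luminal ChIP it was 41.4%, 30.7% and 65.5%, for the difference 47.2%, 41.4% and 82.9%, and between the inputs 60.5%, 61.5% and 1.43%. At 115 to 283 reads per member and library, the smallest ratio above 1 over input whose interval excluded 1 was 1.29-fold.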
